A study of Triticum aestivum with 6 samples.

Results

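The 150 stepwise probes were those whose signal in crown tissue was higher in the grass-clump dwarf line Ldn/KU-2025 than in the wild-type (WT) line, and much higher again in the other dwarf line, crt/KU-2025. The dwarf lines are called the Ldn dwarf and the crt dwarf here. The probes were chosen on the measured signals of 37826 wheat probes. The lower Ldn/KU-2025 array had to reach at least 2 times the higher WT array and a signal of 60, the lower crt/KU-2025 array had to reach at least 4 times the higher Ldn/KU-2025 array, and the crt/KU-2025 arrays could differ by at most 4 times. These limits were met by 151 probes (0.399% of all probes), of which 1, described as pathogenesis-related 1, was left out by name. Both steps were therefore set by the choice, and their sizes are given as a description with no test.

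The samples were synthetic hexaploid wheats, made by crossing a tetraploid wheat, the source of their A and B genomes, with Aegilops tauschii, the source of the D genome. WT was Langdon (Ldn) crossed with KU-2059, Ldn/KU-2025 had the same tetraploid parent and the Ae. tauschii accession KU-2025, and crt/KU-2025 joined KU-2025 to a tetraploid of T. turgidum subsp. carthlicum, so that each line stood for 1 cross and the crt line differed from WT in both parents. All plants were 8 weeks old, had stood at 24°C in days of 18 h light and 6 h dark, and RNA came from the crown, the shoot base that holds the shoot apical meristem. Each line, in its F4 generation, had 2 arrays from independent experiments, all with 1 color of dye on the KOMUGI 38k design. Signals were in the authors' scaled units, in which the trimmed mean of every array is 2500. WT shared 1 slide with the Ldn dwarf, and the crt dwarf arrays lay on the other, so that the crt line and its slide cannot be told apart in any comparison that includes it. Both dwarf lines were also compared through shared arrays, so that the first and second step are not independent of each other. In RNA from whole crowns, more cells of a type and more RNA per cell cannot be told apart.

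Plants respond to microbes and wounding through receptors at the cell surface and resistance proteins inside the cell, and downstream of these they make hydrolases that cut microbial walls, inhibitors of foreign digestive enzymes, oxidative enzymes of the cell wall, and phenolic compounds. Hybrid necrosis is regarded as such a response in the absence of a microbe, set off when genes from both parents of a cross meet. Type II necrosis lines of wheat show necrosis in the cold and, at normal temperature, a dwarf habit with many tillers.

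Of the stepwise probes, 74 stood in the lists of up-regulated probes in the study's S3 Table, and 57 of these had a named product. Another 17 were listed without one, and 76 were not listed in the rows used here, which held all 362 probes of the Ldn dwarf list and the first 1096 of the crt dwarf list. Not being listed therefore says nothing about a probe's function. The rows used also took in the study's list of probes down-regulated in the Ldn dwarf, which entered the counts of probes by description below. The named products were sorted into 12 groups by their descriptions after their values had been seen. A description is the best match to a known sequence, a probe may detect the A, B and D copies of a gene together, and several probes may detect 1 transcript. No probe sequence was among the files used, and none is shown.

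The first step was met by 873 probes (2.31% of all probes). Of these, 153 (17.5%) also met the second, against 1883 of all probes (4.98%), which is the count the limits themselves fix. Of the 153, 2 were dropped because their crt dwarf arrays were too far apart, and 1 was the probe left out by name. Of the other probes with the first step, 269 were higher in the crt dwarf than in the Ldn dwarf on both arrays but by less than 4 times, 206 overlapped between the dwarf lines, and 245 were lower in the crt dwarf on both arrays. With all limits turned downward, 20 probes fell in steps.

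Over the 150 probes, the median measured ratio of the Ldn dwarf to WT was 2.94. It ranged from 2.06 to 15.8 over the members above background on a WT array, and the highest lower bound of the others was 17.0. The median ratio of the crt dwarf to the Ldn dwarf was 8.91, with a range from 4.30 to 420.1. On the log2 scale the median difference was 1.55 for the first step, beside -0.02 over all probes, and 3.16 for the second, beside 0.11 over all probes. The second step was the larger on the log2 scale for 142 probes, and for 146 when dim WT signals were set to the lowest detectable signal. The lowest crt dwarf array was at least 16 times the highest Ldn dwarf array for 32 probes, and the lowest Ldn dwarf array was at least 4 times the highest WT array for 33.

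**Figure D1:**
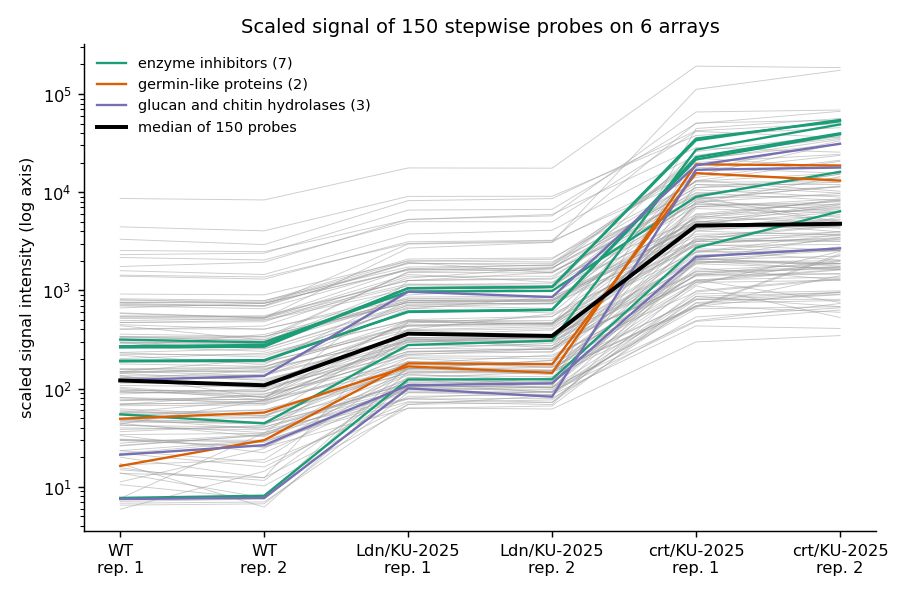
Scaled signal intensity on a log axis for each of the 150 stepwise probes (thin gray lines) on the 6 arrays, with 3 groups of named products in color and the median over all 150 in black. Every line rises between WT and Ldn/KU-2025 and again between Ldn/KU-2025 and crt/KU-2025, as the choice requires. For 119 of the 150 the crt/KU-2025 arrays lie within 1.5 times of each other, and for 8 they are over 2 times apart.

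All 150 probes were well above background on all 4 dwarf arrays. In WT, 120 were well above background on both arrays, 3 on 1 array and 27 on neither. For those 27 the ratio to WT is given as a lower bound ("at least") wherever a single probe is described. On each WT array the bound uses the probe's own signal or the lowest signal of any probe marked well above background, 27.4 and 27.9, whichever was higher, since the mark is set spot by spot and a signal over that lowest one can lack it. With these bounds the median log2 first step over all 150 was 1.49.

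**Figure D2:**
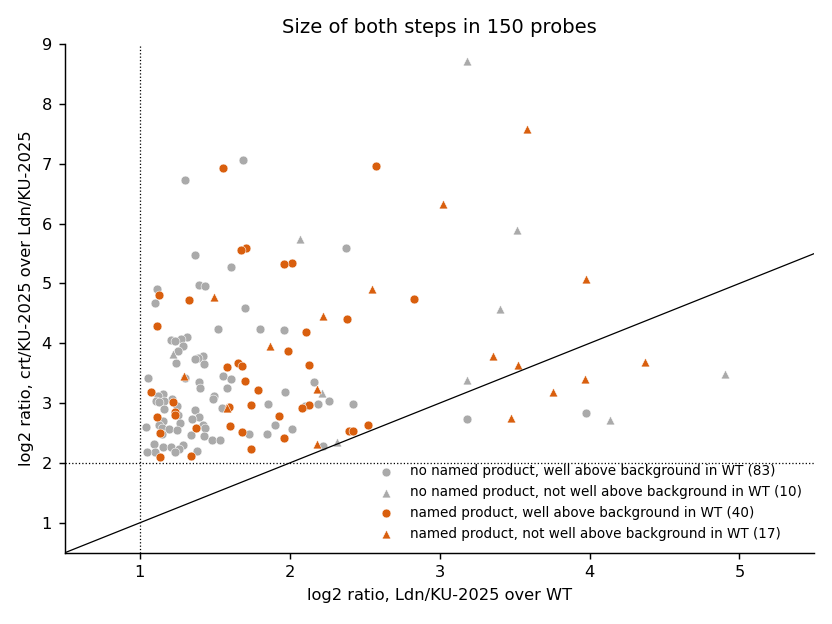
First step (horizontal, Ldn/KU-2025 over WT) and second step (vertical, the ratio between the dwarf lines) of the 150 probes, as log2 ratios from the mean log2 signals of 2 arrays a line. Dotted lines mark 1 and 2, near the limits of the choice, the solid line marks equal steps, color separates the 57 probes with a named product from the other 93, and triangles, plotted at their measured ratios, mark the 27 probes not well above background on both WT arrays.

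Receptors and resistance proteins are the parts of the response that recognize a microbe. The 5 such probes had first steps between 2.17 and 3.03 times and second steps between 6.15 and 27.2 times. The probe rwhoh27f12, described as RPP13, in Arabidopsis an intracellular resistance protein against downy mildew, read 21.8 and 29.2 in WT, 73.5 and 68.7 in the Ldn dwarf, and 1992 and 1877 in the crt dwarf. For RPM1, in Arabidopsis a resistance protein against the bacterium Pseudomonas syringae, MUGEST2003_23lib_Contig5812_564 gave 62.1 and 53.4 in WT, 145 and 144 in the Ldn dwarf, and 4019 and 3659 in the crt dwarf. These were the largest second steps of the group, 27.2-fold and 26.5-fold, and RPP13 was not well above background in WT. The probe for RPS2, which in Arabidopsis also acts against P. syringae (MUGEST2003_23lib_Contig9998_629), had 533 and 523 in WT, 1163 and 1126 in the Ldn dwarf, and 7098 and 8541 in the crt dwarf. Its second step was 6.81-fold. The group's receptor kinases were Wall-associated receptor kinase 3 (MUGEST2003_23lib_Contig20041_612), of a family that binds pectin in the cell wall, and Cysteine-rich receptor kinase 41 (MUGEST2003_23lib_Contig11928_1721). The wall-associated kinase read 96 and 93.9 in WT, 276 and 299.5 in the Ldn dwarf, and 1866 and 1678 in the crt dwarf. The cysteine-rich kinase read 23.3 and 29.9 in WT, 78.2 and 79.6 in the Ldn dwarf, and 537 and 664 in the crt dwarf, with both WT arrays not well above background. They were 2 of 31 probes described as receptor kinases in the S3 Table rows used, and of the other 29, 4 met only the first step, 16 only the second and 9 neither. The study's list of probes down-regulated in the Ldn dwarf held 3 of the 31. The linear model described below called 6 of the 31 higher and 2 lower in the Ldn dwarf than in WT. Over all 37826 probes these calls numbered 367 and 74. In the crt dwarf over the Ldn dwarf the model called 20 higher and 2 lower, beside 3552 and 3775 of all probes. Probes for resistance proteins were not counted in this way. The study reports resistance genes among those down-regulated in Ldn/KU-2025.

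Both transcription factors among the named products had similar second steps. WRKY transcription factors bind a short promoter element in many defense genes, and the probe for WRKY 23 (rwhcs11i13_559) read 68.9 and 88 in WT, 181 and 182 in the Ldn dwarf, and 1445 and 1486 in the crt dwarf. The CCCH factor, a zinc finger protein (MUGEST2003_23lib_Contig8833_225), read 149 and 198 in WT, 709 and 747 in the Ldn dwarf, and 4779 and 6266 in the crt dwarf. Their second steps were 8.08-fold and 7.52-fold.

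The 7 enzyme inhibitors had second steps between 12.3 and 124.7 times. Their median of 40.4, beside 8.91 over all stepwise probes, was the value of whsh_allContig137, 1 of 4 probes with the same description. Cereal alpha-amylase trypsin inhibitors block the digestive enzymes of insects and mammals, and the probe described as one (MUGEST2003_23lib_Contig3803_446) read 54.6 and 44.2 in WT, 278 and 308 in the Ldn dwarf, and 27126 and 48996 in the crt dwarf. It rose 5.95-fold in the Ldn dwarf and 124.7-fold again in the crt dwarf. Subtilisin-chymotrypsin inhibitor CI-1B, a small inhibitor of serine proteases, had 4 probes, whose values fell into a pair of near-equal couples. In the first couple, whsh_allContig818 read 189 and 193 in WT, 610.1 and 637 in the Ldn dwarf, and 22776 and 39819.7 in the crt dwarf. Its partner whsh_allContig731 read 192 and 195 in WT, 603 and 632 in the Ldn dwarf, and 21566 and 38898 in the crt dwarf. These partners lay close to each other on every array. In the second couple, whsh_allContig137 read 262 and 267 in WT, 1052 and 1084 in the Ldn dwarf, and 35200.3 and 52775 in the crt dwarf. Its partner wheat0130Contig12699 read 270.2 and 278 in WT, 1052 and 1086 in the Ldn dwarf, and 33820.1 and 54498 in the crt dwarf. Whether the partners detect 1 transcript was not tested.

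The related inhibitor CI-2A (MUGEST2003_23lib_Contig9443_306) read 7.7 and 8.1 in WT, 124 and 124 in the Ldn dwarf, and 2719.8 and 6400.4 in the crt dwarf. It was well above background on every dwarf array but on neither WT array, with a first step of at least 4.49-fold and a second of 33.6-fold. Wheat xylanase inhibitors act on fungal enzymes that cut cell wall xylan, and this probe (wheat0130Contig14209) read 315 and 296 in WT, 974 and 988 in the Ldn dwarf, and 8985 and 16142 in the crt dwarf. It had the smallest second step of the inhibitors, 12.3-fold. All 7 inhibitors were higher on the second crt dwarf array than on the first, by 0.58 to 1.23 on the log2 scale.

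Glucan and chitin hydrolases cut polymers of plant and fungal cell walls. The glucan endo-1,3-beta-D-glucosidase (MUGEST2003_23lib_Contig16264_863), an enzyme that cuts callose and fungal glucans, read 7.5 and 7.7 in WT, 100.4 and 82.6 in the Ldn dwarf, and 16922 and 17822 in the crt dwarf. It was not well above background in WT, with a second step of 190.7-fold, the largest of the named products. The chitinase, which cuts the chitin of fungal walls (wheat0130Contig5942), read 122 and 134 in WT, 969 and 855 in the Ldn dwarf, and 18791 and 31127 in the crt dwarf. Lichenase-2, an enzyme of mixed-linkage glucans in cereal walls (wheat0130Contig11274), read 21.2 and 26.5 in WT, 108 and 113 in the Ldn dwarf, and 2202 and 2681 in the crt dwarf. The chitinase gained 7.12-fold at the first step and 26.6-fold at the second, and lichenase-2 gained at least 4.003-fold and 21.95-fold. Of 9 probes in the S3 Table rows described as chitinases, glucanases or pathogenesis-related proteins, 2 were members, 5 met only the second step, 1 only the first, and the other 1, the probe left out by name, met both. The table's lists were made from these same arrays, so that they hold only probes the study had called.

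Germins are wall glycoproteins of the cupin family, some of which release hydrogen peroxide. Both germin probes carried the description Germin 8-5. The first, wheat0130Contig11551, read 49.3 and 57 in WT, 168 and 144 in the Ldn dwarf, and 19239.5 and 18712 in the crt dwarf. The other, MUGEST2003_23lib_Contig3789_112, read 16.3 and 29.8 in WT, 181 and 177 in the Ldn dwarf, and 15644 and 13141 in the crt dwarf, with WT not well above background. Their second steps were 121.7-fold and 80.2-fold, and both were lower on the second crt dwarf array than on the first, by 0.04 and 0.25 on the log2 scale. The S3 Table rows held 4 germin probes, and the other 2 met only the first step. These other 2 were called lower in the crt dwarf than in the Ldn dwarf in the linear model described below. Such lower calls numbered 3775 of all 37826 probes.

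Class III peroxidases use hydrogen peroxide to cross-link wall polymers. The 4 peroxidase probes had second steps between 4.36 and 13.9 times. Peroxidase 72-like (wheat0130Contig6294) read 6.8 and 7 in WT, 69.1 and 72.4 in the Ldn dwarf, and 1276 and 756 in the crt dwarf. Root peroxidase (wheat0130Contig4339) read 17.2 and 6.2 in WT, 119 and 118 in the Ldn dwarf, and 1698 and 1274 in the crt dwarf. Both were not well above background in WT, and their first steps were at least 2.56-fold and at least 4.29-fold. Peroxidase 5 (whr18a08) read 96.7 and 94.6 in WT, 313 and 328 in the Ldn dwarf, and 2456 and 2549 in the crt dwarf. Peroxidase 5-like (whsh11j09) read 268 and 356 in WT, 784 and 784 in the Ldn dwarf, and 3239 and 3606 in the crt dwarf, and had the smallest second step of the group, 4.36-fold. Among 15 peroxidase probes in the S3 Table rows, 8 of the 11 others met only the first step and 3 met neither.

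Phenylpropanoid enzymes supply lignin, flavonoids and other phenolics. Phenylalanine ammonia-lyase, which starts the pathway (wheat0130Contig5889), read 663 and 738 in WT, 1604 and 1688 in the Ldn dwarf, and 11093 and 12637 in the crt dwarf. It had a first step of 2.35-fold and a second of 7.20-fold. Caffeic acid O-methyltransferase, which methylates lignin precursors (wheat0130Contig4207), read 114 and 117 in WT, 357 and 395 in the Ldn dwarf, and 3345 and 4547 in the crt dwarf. Aldehyde dehydrogenase 2C4, in Arabidopsis the enzyme that forms ferulic and sinapic acid, had a pair of probes. The first (wheat0130Contig8119) read 53.7 and 60.3 in WT, 144 and 151 in the Ldn dwarf, and 827 and 949 in the crt dwarf. The 2C4-like probe (MUGEST2003_23lib_Contig10260_400) read 27.8 and 34.2 in WT, 78.8 and 72.5 in the Ldn dwarf, and 752 and 904 in the crt dwarf, with WT not well above background. The second steps of the methyltransferase and of these probes were 10.4-fold, 6.01-fold and 10.9-fold.

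The probe described as benzyl alcohol O-benzoyltransferase-like (MUGEST2003_23lib_Contig5123_104), of a family that joins acyl groups to alcohols, read 1752 and 1934 in WT, 5293 and 5746 in the Ldn dwarf, and 65660.5 and 68715 in the crt dwarf. Its steps were 2.996-fold and 12.2-fold. A cyanidin glucosyltransferase-like probe (whdp13h20_212), for an enzyme that adds glucose to anthocyanins, read 49.4 and 50.3 in WT, 108 and 101 in the Ldn dwarf, and 922 and 989 in the crt dwarf. O-methyltransferase ZRP4, first known from maize roots (rwhh4f04), read 30.5 and 28.2 in WT, 106 and 118 in the Ldn dwarf, and 1110.2 and 529 in the crt dwarf. Its crt dwarf arrays differed by 2.10 times and the first was the higher, while the other 6 probes of phenolic metabolism were higher on the second.

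A further 4 products were grouped as related to defense by their descriptions. WIR1 (wheat0130Contig7181), a wheat gene induced by powdery mildew, read 108 and 104 in WT, 225 and 237 in the Ldn dwarf, and 6809 and 6179 in the crt dwarf. Its first step of 2.19-fold was followed by a second of 28.1-fold. Remorin, a plasma membrane protein (wheat0130Contig10188), read 66.9 and 68.1 in WT, 206 and 201 in the Ldn dwarf, and 1418 and 1728 in the crt dwarf. The second steps of remorin, Elicitor-responsive 1 (wheat0130Contig6533) and the infection-related probe (MUGEST2003_23lib_Contig8165_480) were 7.69-fold, 5.69-fold and 4.72-fold.

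**Figure D3:**
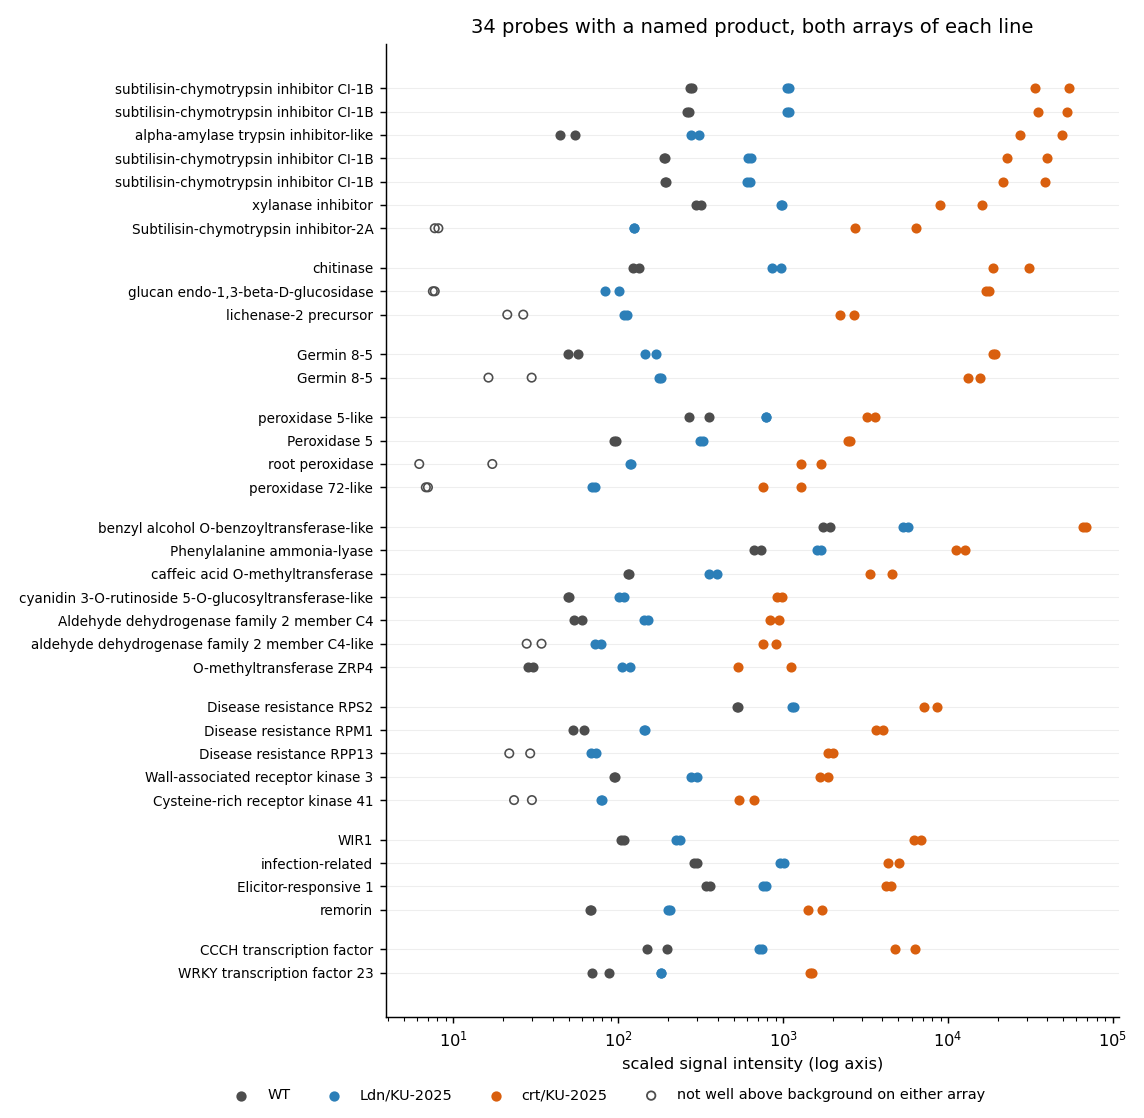
Scaled signal intensity on a log axis for the 34 probes with products named in the receptor, transcription factor, inhibitor, hydrolase, germin, peroxidase, phenolic and other defense groups, with both arrays of WT (dark gray), Ldn/KU-2025 (blue) and crt/KU-2025 (orange). Open points mark a line in which neither array was well above background, and signals of different probes are not on a common scale of transcript amount.

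Protein breakdown was represented by 5 probes, with second steps between 5.81 and 15.5 times. A papain-type peptidase (wheat0130Contig1882) read 23.3 and 17.7 in WT, 71.7 and 76.7 in the Ldn dwarf, and 989 and 1327 in the crt dwarf, with WT not well above background. The probe described as fruit bromelain, also a cysteine protease (wheat0130Contig5997), read 80.8 and 76.5 in WT, 315 and 309 in the Ldn dwarf, and 4034 and 5196 in the crt dwarf. Ubiquitin 11 (wheat0130Contig9130), the tag of proteins to be degraded, read 149 and 148 in WT, 786 and 808 in the Ldn dwarf, and 4584 and 4678 in the crt dwarf. Serine carboxypeptidase 2 (wheat0130Contig635) and an F-box protein (MUGEST2003_23lib_Contig18000_436), of the family that picks targets for ubiquitin, had second steps of 7.85-fold and 9.09-fold. The F-box probe was 1 of 26 F-box probes in the S3 Table rows, of which 15 met only the second step and 1 only the first.

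In lipid metabolism, a pair of probes was described as Patatin group A-3, a lipid acyl hydrolase. One (wheat0130Contig1967) read 13.7 and 12.4 in WT, 68.8 and 84.7 in the Ldn dwarf, and 2049 and 2554 in the crt dwarf, and it was not well above background in WT. The other (wheat0130Contig1057) read 231 and 209.5 in WT, 677 and 734 in the Ldn dwarf, and 3553 and 4579 in the crt dwarf. Their second steps were 29.97-fold and 5.72-fold, so that probes with 1 description differed in size of step. Fatty acyl reductase 1, which makes fatty alcohols (MUGEST2003_23lib_Contig20842_1613), read 10.5 and 7.5 in WT, 99.1 and 98.2 in the Ldn dwarf, and 650.2 and 681 in the crt dwarf, with WT not well above background and a second step of 6.75-fold.

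Further members belonged to carbon and hormone metabolism. Alcohol dehydrogenase 3, an enzyme of fermentation (wheat0130Contig1687), read 581 and 528 in WT, 1658 and 1831 in the Ldn dwarf, and 20135 and 24303 in the crt dwarf. Beta-fructofuranosidase 1, an invertase that cuts sucrose (wheat0130Contig11963), read 68.6 and 73.9 in WT, 240.2 and 252 in the Ldn dwarf, and 2563 and 2039.6 in the crt dwarf. Their steps were 3.15-fold and 12.7-fold for the dehydrogenase, and 3.46-fold and 9.29-fold for the invertase. Cytokinin-O-glucosyltransferase 1, which stores cytokinin as an inactive glucoside (wheat0130Contig2583), read 13.8 and 7.7 in WT, 168 and 155 in the Ldn dwarf, and 1448 and 2009 in the crt dwarf. Its WT arrays were not well above background, and its first step was at least 5.84-fold. The nectarin-3 probe (wheat0130Contig2317), for a tobacco nectar protein with carbonic anhydrase activity, read 48.7 and 44.9 in WT, 234 and 259 in the Ldn dwarf, and 1401 and 1465 in the crt dwarf. The 2 transporters, for peptides (PTR2, whf13o09) and polyols (whrd2e22_481), had second steps of 5.33-fold and 4.30-fold, both near the limit of 4 times. The S3 Table rows held 26 transporter probes, of which 10 met only the second step, 1 only the first and 13 neither. Of 7 probes for alcohol dehydrogenase or pyruvate decarboxylase, 1 was a member, 1 met only the second step and 5 met neither. Of 12 cytochrome P450 and 9 glutathione transferase probes, 0 were members.

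Among the remaining named products, both early nodulin probes rose steeply. The first (wheat0130Contig573) read 437 and 312 in WT, 1547 and 1641 in the Ldn dwarf, and 22927 and 37049 in the crt dwarf. The other (wheat0130Contig10398) read 218 and 175 in WT, 984 and 1057 in the Ldn dwarf, and 14736 and 31683 in the crt dwarf, and its crt dwarf arrays differed by 2.15 times. SRG1, in Arabidopsis a senescence-related oxygenase (whvs15m15_637), read 144 and 156 in WT, 333 and 316 in the Ldn dwarf, and 5933 and 6715 in the crt dwarf. The SRG1 steps of 2.17-fold and 19.5-fold contrasted with those of an unclassified retrotransposon (MUGEST2003_23lib_Contig10723_613), at least 5.45-fold and 12.9-fold. The retrotransposon probe read 7.1 and 7.5 in WT, 149 and 152 in the Ldn dwarf, and 2129 and 1769 in the crt dwarf, with WT not well above background. B12D (wheat0130Contig5956), known from cereal grains, had a second step of 12.4-fold. The BRCA1-associated (MUGEST2003_23lib_Contig18063_1400), pre-mRNA-processing 40A-like (MUGEST2003_23lib_Contig16290_1162) and AAA ATPase (rwhr24m04) probes had second steps of 6.18-fold, 6.94-fold and 4.97-fold.

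Many of the most extreme values belonged to the 93 probes without a named product. The largest second step of all, 420.1-fold, was that of MUGEST2003_23lib_Contig4076_p_195, which read 14.9 and 11.6 in WT, 130.4 and 109 in the Ldn dwarf, and 44551 and 56364 in the crt dwarf. It was not well above background in WT. The probe rwhh15b20 read 47.3 and 45.6 in WT, 162 and 138 in the Ldn dwarf, and 22206 and 17987 in the crt dwarf, a second step of 133.5-fold with WT above background. Signals of different probes do not order their transcripts, since probes differ in how they bind. By signal in the crt dwarf, wheat0130Contig11245 came first, at 8631 and 8342 in WT, 17674 and 17578 in the Ldn dwarf, and 192347 and 185878 in the crt dwarf. It was also first by signal in WT, and its first step of 2.08-fold lay close to the limit. The next by crt dwarf signal, wheat0130Contig12166, read 591 and 524 in WT, 2698 and 3081 in the Ldn dwarf, and 111498 and 174294 in the crt dwarf. Its steps were larger, 5.18-fold and 48.4-fold. For rwh25j15 the signals were 2312 and 2393 in WT, 6577 and 6690.1 in the Ldn dwarf, and 50133 and 66649 in the crt dwarf. For wheat0130Contig15801 they were 1395 and 1305 in WT, 3125 and 3238 in the Ldn dwarf, and 50719 and 54083 in the crt dwarf. These were the fourth and the fifth by crt dwarf signal, with second steps of 8.71-fold and 16.5-fold. The mean crt dwarf signal was at least 10000 for 44 members, 29 of them without a named product, while the mean Ldn dwarf signal was that high for 1 member and the mean WT signal for 0.

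By first step, whsh_allContig749 came first with 20 and 12.3 in WT, 482 and 459 in the Ldn dwarf, and 5684 and 4859 in the crt dwarf. Because it was not well above background in WT, this step is at least 17.0-fold. Among members above background on both WT arrays, wheat0130Contig14853 had the largest first step, 15.8-fold. It read 100.5 and 76.8 in WT, 1256 and 1529 in the Ldn dwarf, and 8591 and 11373 in the crt dwarf. A further probe, named in the files only by a database number, read 7.6 and 35.4 in WT, 325 and 257 in the Ldn dwarf, and 1929 and 1866 in the crt dwarf. Its WT arrays were not well above background and unequal, and its first step was at least 9.28-fold. The other members with the highest WT signals had small steps. They were wheat0130Contig9545, wheat0130Contig14000 and wheat0130Contig6935, with second steps of 4.56-fold, 5.47-fold and 4.82-fold.

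The values just inside and just outside each limit were close. At the first step, rwhrd16p18_166 was inside with a lowest Ldn dwarf signal 2.01 times the highest WT signal, and MUG024D10R990620 was outside at 1.9994. At the second step, rwhyf25l11 was inside at 4.08 times and wheat0130Contig8692 outside at 3.99 times. At the limit on signal, wheat0130Contig5465 was inside with a lowest Ldn dwarf signal of 61.9, and MUGEST2003_23lib_Contig3707_821 was outside at 59.6. By the ratio of the crt dwarf arrays, wheat0130Contig12138, described as chemocyanin, a small copper protein, was inside at 3.45 and MUGEST2003_23lib_Contig6137_365 outside at 4.05.

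A linear model of all 6 arrays with limma, in which a call needed a 3-fold change and an adjusted p (Benjamini-Hochberg, 37826 probes) under 0.05, used the contrasts that chose the members, so its calls only describe them. It called 62 of the 150 higher in the Ldn dwarf than in WT (0.97% of all probes), 150 higher in the crt dwarf than in WT (11.8%), and 150 higher in the crt dwarf than in the Ldn dwarf (9.39%). For the first step, 70 members reached 3-fold and 132 had an adjusted p under 0.05. The shares of all probes at these separate limits were not counted. Of the 57 members with a named product, 36 were called at the first step, among them all 3 hydrolases, all 3 lipid enzymes and all 5 of protein breakdown, 5 of 7 inhibitors, 1 of 7 phenolic enzymes and 1 of 5 receptors and resistance proteins. Of the 93 others, 26 were called. Only probes in the study's lists could have a named product. The Ldn dwarf list was the study's own call of this step on these arrays, so that naming and calling were not independent. The count of 62 depended on each of the 4 arrays compared and fell when any of them was left out. A line then had 1 array, which was assumed to vary like the other lines. The share of all probes called in those fits was not counted, so the fall cannot be read as particular to the members. The median log2 first step over members hardly moved, at 1.52 and 1.58 without the first or second WT array and 1.56 and 1.53 without the first or second Ldn dwarf array, beside 1.55 with all.

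The crt dwarf arrays differed more than those of the other lines. The median absolute log2 difference between the arrays of a line over members was 0.12 in WT, 0.07 in the Ldn dwarf and 0.28 in the crt dwarf, beside 0.08, 0.07 and 0.20 over all probes. The second crt dwarf array was the higher for 109 of 150 members, with a median difference of 0.20, beside 52.1% of all probes. The sign of the difference varied between groups, several of which held only 2 or 3 probes. All inhibitors, hydrolases, lipid enzymes, transcription factors and transporters were higher on the second array, but 2 of 4 peroxidases, 2 of 5 receptors and resistance proteins and 0 of 2 germins were. Some differences were close to 0, such as 0.02 and 0.07 for the transporters and -0.04 for 1 germin probe, so their signs say little. For 119 members the arrays lay within 1.5 times of each other, and for 8 they were over 2 times apart. Without the first crt dwarf array, 228 probes met the limits.

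Crown samples can hold green leaf base, and 21 probes described as chlorophyll a/b-binding protein or as ribulose bisphosphate carboxylase in the S3 Table rows served as its markers. No other marker list was used to check the crown label. Of the 21, 0 were members. By the limits of the choice, 18 met only the first step and 3 met neither, so that all 21 lacked the second step. Most also differed between the crt dwarf arrays by more than the 4 times allowed to a member. Their summed signal was 5600.1 and 5496 in WT, 29959 and 30878 in the Ldn dwarf, and 16725 and 181812 in the crt dwarf, and 15 of 21 were above background on all 6 arrays. In the crt dwarf, 20 of 21 were higher on the second array, with a median log2 difference of 5.65. Because 20 of the 21 came from the study's list of probes up-regulated in the Ldn dwarf on these same arrays, the rise of the sum from WT to the Ldn dwarf was fixed by their choice. The part of green tissue in either step was not tested.

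**Figure D4:**
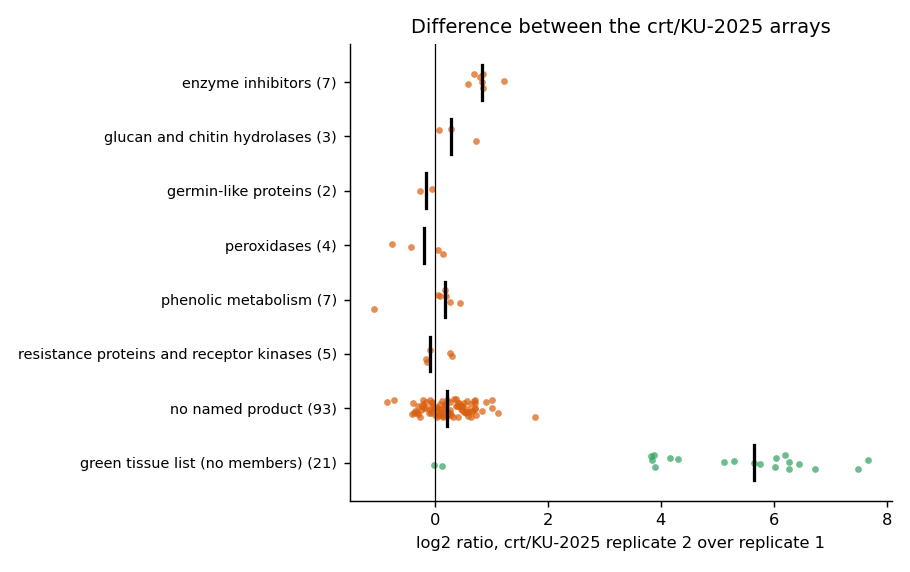
Log2 ratio of the second to the first crt/KU-2025 array for members by group (orange points, 1 a probe, black bars at the medians) and for the 21 green tissue probes, none of them members (green). The 7 inhibitors lie between 0.58 and 1.23, both germins below 0, and the green tissue probes have a median of 5.65. The choice allowed members at most 4 times between these arrays, a limit that the green tissue probes did not have.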

How the data were processed

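The authors hybridized Cy3-labeled cRNA and deposited, for each array, background-subtracted and spatially detrended signal intensities from Feature Extraction (9.5 per the labels, 10.7.3.1 per the file headers), and an intensity table scaled to 2500 over the mean of each array trimmed of 2% of values at each end. That table, with 37826 probes and without the 1417 control spots, gave the members and all printed signals, on which no spot was saturated. Between 75.1 and 77.6% of the probes were well above background on an array, and the number of arrays limits the precision. The members, the groups of products and the gene lists were chosen with earlier results of these data known. Probes were named by a rule. They were all members the S3 Table describes, the 5 members first by mean signal in WT and in the crt dwarf and by each step, and the probes beside each limit. The descriptions came from that table, since 0 probe names matched a RefSeq symbol, locus tag or synonym. The log2 of the scanner intensities, scaled the same way, was fitted with the 3 lines as groups in limma 3.58.1 (lmFit, eBayes) under R 4.3.3, after a test on simulated data. Python 3.11.15 with numpy 2.4.6, pandas 2.3.3 and matplotlib 3.10.9 gave the counts, sums and figures. The alternatives were the 75th percentile, quantile and normexp settings, other limits, the methods' t-test, the replicate block, a fit of only the 2 lines compared, dim probes removed and each array left out in turn. Normexp was run with an offset of 50 on median spot signals, a choice made after seeing the data, because mean signals were not used here.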

Additional observations from a re-analysis of the deposited data

How the results depend on the processing

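Of 78 alternative values, 62 lay within 1.5 times of the main count or within 1 replicate SD of the main median. That SD was 0.09 and 0.15 on the log2 scale for the first and second step. The others, 16, moved further, and 0 changed direction. Only the medians could change direction, and the choice of members had set the direction of both steps, so this was no test of direction. The number of stepwise probes, 150, was 60 with normexp, 59 with a first step of 3 times, 238 with a second step of 2 times, 72 with one of 8 times, 197 with no lower limit on signal, 117 with the 75th percentile and 118 with quantile normalization (116 and 114 of them members), and 162 to 228 with an array left out. The 62 calls of the Ldn dwarf over WT became 17 with normexp, 132 at 2-fold and 7 to 69 with an array left out, while the median log2 first step stayed at 1.52 to 1.58. Apart from the slide, arrays of different lines were linked by a replicate number. The replicate differences of the lines correlated at -0.07, 0.03 and -0.06 over all probes. With 1 difference a line, this cannot show whether same-numbered arrays were paired. With the replicate block, 18 members were called in the Ldn dwarf over WT. By the methods' t-test, 90 members were called in the crt dwarf over WT and 84 over the Ldn dwarf, in place of 150 each. With normexp the median log2 steps were 1.01 and 2.76 in place of 1.55 and 3.16. Fitted without the crt dwarf, on the 4 arrays of 1 slide, 69 were called. The cause of these shifts was not tested, and the share of all probes called was counted for the main fit only. With 2 arrays a line, dim WT signals limit the ratios of 27 members to bounds.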
